A study of Mus musculus with 24 samples.

Results

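Chromatin accessibility of multipotent progenitor class 3 (MPP3) was compared with that of hematopoietic stem cells (HSC) in donor marrow recovered after transplantation, using the 6 MPP3 and 6 HSC libraries, 12 of the 24 ATAC-seq libraries of the series. ATAC-seq uses the Tn5 transposase to insert sequencing adapters into open DNA, so the count over a region rises with its accessibility. Bone marrow of WT mice carrying the CD45.1 allele was transplanted into young CD45.2 mice that were either WT or of a line designated IκB–, and the donor subsets were sorted from both femurs and tibias 13 to 15 weeks later, with 500 to 1500 cells per sample. Each subset has 3 libraries from WT and 3 from IκB– recipients. All profiled cells were therefore of WT donor origin, and only the host differed. The labels do not describe the genetic change of the IκB– line. Both gates took CD45.1+ Lin- Sca1+ cKit-high Flt3- CD150- cells. HSC were then CD48- and MPP3 CD48+, as the labels give the gates, whereas long-term HSC are usually sorted as CD150+. Whether the CD150- of the HSC gate is a slip in the labels could not be settled, and the group is called HSC as labelled. Nothing in the labels says that replicates came from separate animals, and p-values measure the spread between these samples only.

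HSC stand at the top of blood formation, divide rarely and can rebuild the whole system after transplantation. MPP3 are a downstream class of multipotent progenitor that lacks long-term self-renewal and is biased towards granulocytes and macrophages, whereas MPP2 are biased towards megakaryocytes and red cells and MPP4 towards lymphocytes. The transcription factor C/EBPα, the product of Cebpa, is required for the granulocyte and macrophage fates.

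Libraries differed in depth with the subset. Counts over the 13905 nuclear regions summed to 107053 to 239364 in HSC and 276463 to 950203 in MPP3, without overlap, a difference of 1.36 in log2 nuclear total (exact two-sided permutation test within recipient types, p = 0.005, the smallest that 200 arrangements allow; adjusted p = 0.04 over 8 library measures). Mitochondrial counts were 13496 to 17301 in all 12 libraries. Regions no more than 1 kb from the end of a gene took 62.6% to 73.8% in HSC and 67.0% to 71.7% in MPP3 of nuclear counts, and the mean difference of 1.27 percentage points did not pass an exact test (p = 0.525). Replicates 2 and 3 of MPP3 from WT recipients agreed within sampling noise (chi-square statistic of 0.995 for each degree of freedom; p = 0.670; 13121 regions), while the other pairs within the 4 groups gave 1.35 to 3.84. They were counted as 1 sample, with their counts summed in the fits and their mean used for the library measures, which leaves 6 HSC and 5 MPP3 replicates.

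Among the HSC libraries, replicate 3 from IκB– recipients stood apart. It had the highest share of counts near gene ends, 73.8%, its mean Spearman correlation was 0.621 with the other HSC replicates and 0.783 with MPP3, and on the first principal component it lay at 57.5, beyond the other HSC at -53.3 to 1.29 and the MPP3 at -4.15 to 43.8. Of the other 5 HSC libraries, 3 also correlated better with MPP3 than with HSC, but by less (WT HSC 3, 0.716 and 0.777; WT HSC 2, 0.719 and 0.725; IκB– HSC 2, 0.662 and 0.673), and IκB– HSC 1 had a lower correlation with HSC, 0.615. Whether the label of the library that stood apart is right could not be settled from the files; it is used as labelled, and each main count is also given without it.

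**Figure D1:**
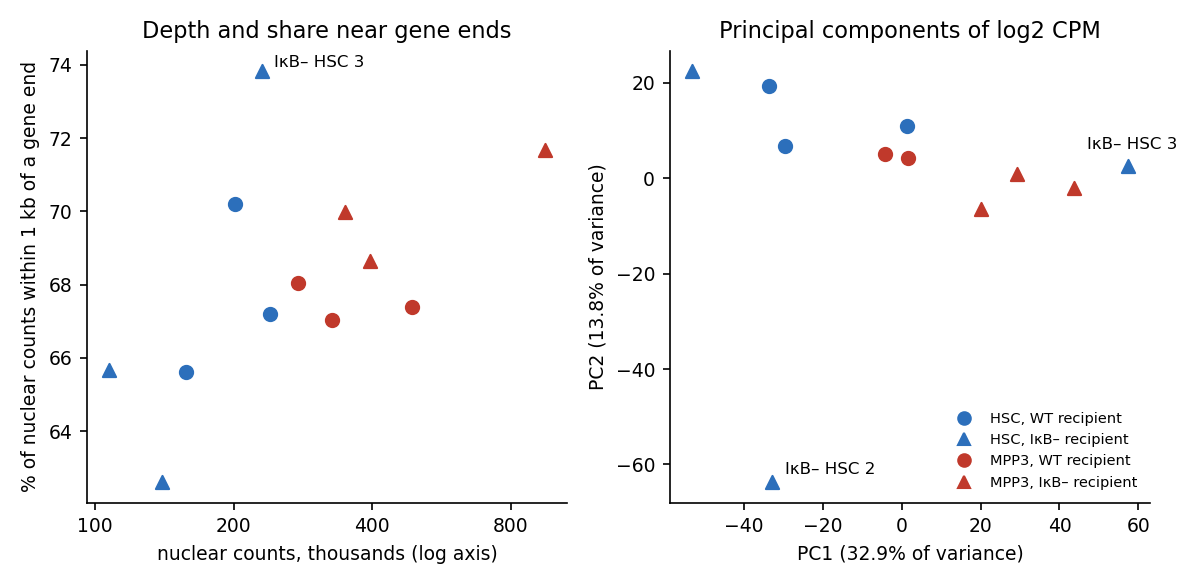
Left, nuclear counts (in units of 1000, log axis) against the percentage near gene ends, 1 point for each of the 12 libraries. Right, the first 2 principal components of log2 CPM for the 11 replicates; blue is HSC, red MPP3, circles WT and triangles IκB– recipients. All MPP3 libraries hold more nuclear counts than any HSC library, and replicate 3 of HSC from IκB– recipients lies at 57.5 on the first component, beyond all MPP3.

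Most regions that differed were less accessible in MPP3 than in HSC, and few were promoters. With recipient type as a covariate, 151 of 11774 regions tested were called (1.28%; edgeR quasi-likelihood test, adjusted p under 0.05), 27 higher in MPP3 (0.229%) and 124 lower (1.05%), with 1372 regions at an unadjusted p under 0.05. In bulk samples, fewer cells with an open region and less opening per cell cannot be told apart. The median log2 fold change was 1.63 for the regions called higher (0.76 to 2.69) and -1.74 for those called lower (-3.47 to -0.78), against -0.02 over all regions tested. All 5 MPP3 replicates lay beyond all 6 HSC replicates in 20 of the 27 regions called higher and 52 of the 124 called lower. With the 12 libraries kept apart, 200 of 11423 regions were called (1.75%), 47 higher and 153 lower, and 150 of the 151 were among them.

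These counts rest on single libraries to a large degree. Without replicate 3 of HSC from IκB– recipients, 420 regions were called, 78 higher and 342 lower, and 149 of the 151 were among them. Leaving out another library gave 71 (WT HSC 1), 104 (WT HSC 2), 161 (WT HSC 3), 70 (WT MPP3 1), 73 (WT MPP3 2 and 3 together), 95 (IκB– HSC 1; 40 higher and 55 lower, a split nearer balance), 74 (IκB– HSC 2), 73 (IκB– MPP3 1), 128 (IκB– MPP3 2) or 64 (IκB– MPP3 3). With every replicate thinned to 107053 nuclear counts, 14 of 6073 regions were called, all 14 lower in MPP3. The part of depth in these calls was not tested beyond this.

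**Figure D2:**
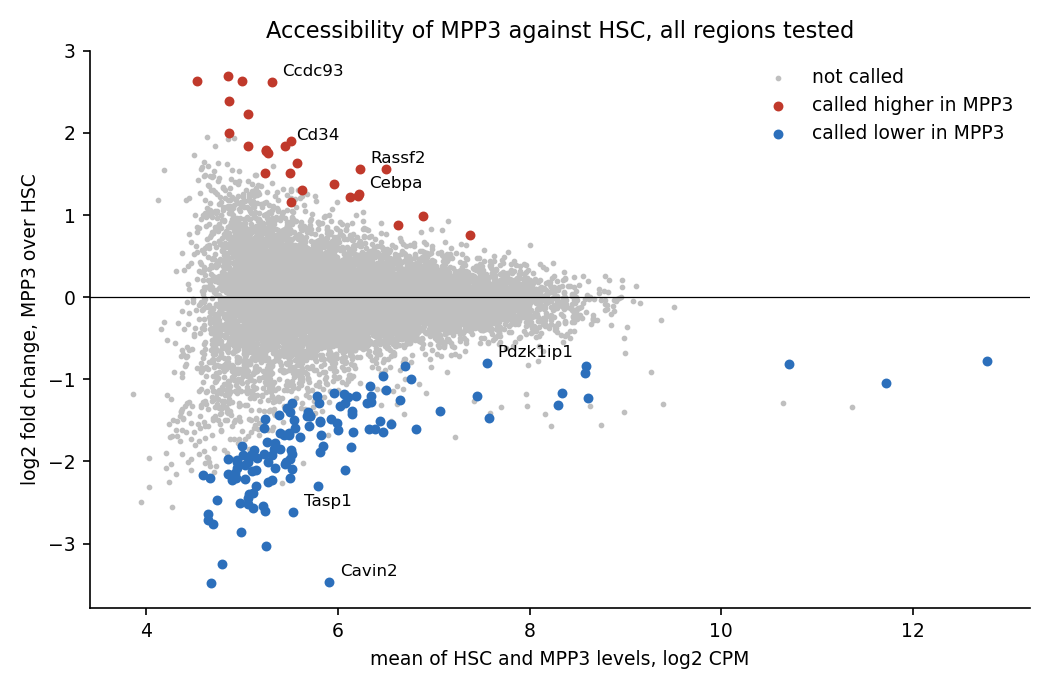
Log2 fold change of MPP3 over HSC against the mean level (log2 CPM) for the 11774 regions tested; red points are the 27 regions called higher in MPP3, blue points the 124 called lower, grey points those not called. Blue points outnumber red ones, and labels mark regions near 7 of the genes described in the text.

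Promoters, here regions within 1 kb of a RefSeq start site, made up 53.8% of regions tested but 4 of the 27 regions called higher (14.8%) and 6 of the 124 called lower (4.84%). Regions inside genes away from start sites gave 14 and 50 calls, and regions outside genes 9 and 64, from 28.9% and 17.2% of the regions tested. Of 20 regions tested on unplaced contigs, 4 were called lower. The share of promoters among all called regions was 6.62%, and 19.5% (82 of 420) without replicate 3 of HSC from IκB– recipients. The median HSC level was 79.6 CPM (counts per 1e+06, TMM-scaled) at promoters, 52.6 CPM in gene bodies, 45.5 CPM outside genes and 213.6 CPM on unplaced contigs.

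The promoters called are shown because they are the calls that can be tied to a gene by position. For 5 of the 10, the 250 bases before the RefSeq start site (build GRCm38.p6, which is the mm10 build named in the submitters' processing notes) lay at least 80% inside the called region. Capitals mark matches on either strand to 10 short motifs: the GC box GGGCGG, the binding letters CCAAT of the factor NF-Y, the box TATAAA of the core promoter, the E-box CACGTG, the letters AGATAA bound by GATA factors, those of RUNX factors, TGTGGT, and of ETS factors, GGAAGT, the κB motif of NF-κB, the core AGGGGGCG of the CTCF motif and the antioxidant response element TGACNNNGC. The windows called higher in MPP3, Cebpa (chr7:35119043-35119292, + strand) and Ppp2r3a (chr9:101251833-101252082, - strand), and the 3 called lower, Nqo1 (chr8:107403206-107403455, - strand), Tmem45a (chr16:56886164-56886413, - strand) and Wdr17 (chr8:54724369-54724618, - strand), read 5′ to 3′:
Cebpa: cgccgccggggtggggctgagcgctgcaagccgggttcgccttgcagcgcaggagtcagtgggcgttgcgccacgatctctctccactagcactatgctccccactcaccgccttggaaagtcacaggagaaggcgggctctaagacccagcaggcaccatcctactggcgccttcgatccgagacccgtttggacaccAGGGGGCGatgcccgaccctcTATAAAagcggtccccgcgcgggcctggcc
Ppp2r3a: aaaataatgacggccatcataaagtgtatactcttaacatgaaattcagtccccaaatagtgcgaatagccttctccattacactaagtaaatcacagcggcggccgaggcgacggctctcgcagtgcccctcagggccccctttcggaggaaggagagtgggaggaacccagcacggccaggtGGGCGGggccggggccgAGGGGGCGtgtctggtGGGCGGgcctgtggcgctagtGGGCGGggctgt
Nqo1: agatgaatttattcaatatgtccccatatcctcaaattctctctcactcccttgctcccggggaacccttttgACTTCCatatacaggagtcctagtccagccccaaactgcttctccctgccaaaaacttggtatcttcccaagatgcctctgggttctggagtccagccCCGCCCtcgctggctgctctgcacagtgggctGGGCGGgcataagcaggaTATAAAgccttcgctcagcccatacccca
Tmem45a: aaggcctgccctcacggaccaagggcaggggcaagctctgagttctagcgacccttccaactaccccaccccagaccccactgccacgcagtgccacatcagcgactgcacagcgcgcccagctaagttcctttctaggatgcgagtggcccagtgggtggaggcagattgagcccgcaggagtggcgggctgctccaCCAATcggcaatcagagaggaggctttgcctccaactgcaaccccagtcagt
Wdr17: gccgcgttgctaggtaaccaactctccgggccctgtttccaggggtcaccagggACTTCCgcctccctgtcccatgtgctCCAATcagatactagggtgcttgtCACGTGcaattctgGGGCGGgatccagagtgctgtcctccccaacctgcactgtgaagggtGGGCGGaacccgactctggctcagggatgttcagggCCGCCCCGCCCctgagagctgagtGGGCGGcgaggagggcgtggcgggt

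The AGGGGGCG core was matched in the Cebpa and Ppp2r3a windows and in none of the other 3 shown, and 5.39% of 32851 RefSeq promoters of this length hold it. Promoters on chromosome 18 were left out of this background. The TATAAA letters were matched in Cebpa and Nqo1 (12.4% of the background promoters), and GGGCGG in Ppp2r3a, Nqo1 and Wdr17 (32.7%). CCAAT was matched in Tmem45a and Wdr17 (33.8%), GGAAGT in Nqo1 and Wdr17 (19.7%) and CACGTG in Wdr17 (6.02%). The κB motif (1.41% of the background promoters), AGATAA (9.99%), TGTGGT (14%) and TGACNNNGC (10.2%) were matched in none of the 5 windows. In Wdr17 a pair of GGGCGG matches on the other strand share 1 base, and no other matches in these windows touch.

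Cebpa, the gene of the factor that starts granulocyte and macrophage differentiation, had the clearest change among the myeloid genes. The region over its start site (chr7:35119022-35119411) held 26.4, 38.9 and 66.9 CPM (lowest, median and highest) in the 6 HSC replicates. The MPP3 replicates held 88.5 and 93.8 CPM in WT recipients and 139, 109 and 105 CPM in IκB– recipients. Every MPP3 replicate was above every HSC replicate. The log2 fold change was 1.26 (SE 0.25, adjusted p = 0.00901), 1.31 in WT and 1.22 in IκB– recipients, and the call held when any replicate was left out. It was lost only on thinned counts, where the log2 fold change was 1.20 (adjusted p = 0.248). The list of 24 myeloid genes, Spi1, Csf1r and Irf8 among them, had 12 genes with a tested region, and their other 20 regions were not called, and the median over the 21 was 0.05, beside 0.229% called higher and a median of -0.02 over all regions.

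Cd34 encodes a surface sialomucin that is low on long-term HSC and appears on multipotent progenitors, and it was not part of the gate. A region outside the gene, 10.5 kb from its start site (chr1:194927975-194928305), held 0, 22.8 and 38.3 CPM in HSC. Levels in MPP3 were 94.8 and 68.2 CPM in WT recipients and 88.7, 28.6 and 56.8 CPM in IκB– recipients. The groups overlapped through replicate 2 of MPP3 from IκB– recipients, and the log2 fold change was 1.84 (SE 0.43, adjusted p = 0.0243; 0.206 with limma-voom). This call was lost in 6 of the 11 fits that left out a replicate (WT HSC 1, WT HSC 2, IκB– HSC 2, WT MPP3 1, WT MPP3 2 and 3, IκB– MPP3 1), with adjusted p between 0.0529 and 0.103. The other 3 regions near Cd34 were not called. One in the gene body had a log2 fold change of 1.31 (SE 0.43, adjusted p = 0.157), the promoter 0.22 (SE 0.26) and a region 37.4 kb away -0.10 (SE 0.20).

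Of the genes that defined the sort, few had regions to test. The Kit promoter, at the gene of the stem cell factor receptor, had a log2 fold change of 0.35 (SE 0.34, adjusted p = 0.787). The Flt3 promoter had 0.42 (SE 0.29, adjusted p = 0.640) and a Flt3 gene body region 0.35 (SE 0.37, adjusted p = 0.816). Neither subset was sorted to differ in these markers. Slamf1, which encodes CD150, had 1 region that did not pass the filter on low counts, and no region lay nearest Ly6a (Sca1) or Cd48, the marker that separates the gates, so the gate itself could not be checked on accessibility.

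Rassf2, a Ras-binding adaptor that restrains growth, had the strongest promoter call among the regions higher in MPP3. The region (chr2:132029563-132030124) held 15.8, 35.9 and 69.0 CPM in HSC. MPP3 showed 107 and 126 CPM in WT and 129, 77.9 and 122 CPM in IκB– recipients. The groups did not overlap, and the log2 fold change was 1.56 (SE 0.29, adjusted p = 0.00554), 1.37 in WT and 1.81 in IκB– recipients. The call was lost on thinned counts (adjusted p = 0.185). The other promoters called higher were Limk1, whose kinase controls actin filaments (log2 fold change 1.17, SE 0.30), and Ppp2r3a, a regulatory subunit of protein phosphatase 2A (0.76, SE 0.18). In both, all MPP3 replicates were above all HSC replicates. Limk1 held 23.0, 26.6 and 33.5 CPM in HSC against 53.8 to 77.9 CPM in MPP3, yet its adjusted p of 0.0432 did not survive 10 of the 11 fits without a replicate (all but that without IκB– HSC 3), where it was 0.0595 to 0.121. Ppp2r3a, at an adjusted p of 0.0306, lost its call in 8 of the 11 (all but those without WT HSC 2, IκB– HSC 3 or IκB– MPP3 2), at 0.0611 to 0.0804.

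The other regions among the 12 strongest calls higher in MPP3 lay away from start sites, and several were close to closed in HSC. A region in the gene body of Ccdc93, which encodes a subunit of an endosomal recycling complex (chr1:121478326-121478658), held 0, 12.1 and 23.0 CPM in HSC. The MPP3 replicates held 101 and 66.5 CPM in WT and 77.0, 46.8 and 44.8 CPM in IκB– recipients, with no overlap and a log2 fold change of 2.62 (SE 0.45, adjusted p = 0.00391), and the call was lost with limma-voom (adjusted p = 0.0657), as were 8 of the 12 strongest calls higher in MPP3. In 6 of these regions no HSC library had more than 3 counts. They include regions in or near Ccdc93, Tubgcp5 and Ccdc88c, or inside Ppargc1a and Ankrd44 with no start site within 50 kb, and summed counts per region were 7 to 12 over the 6 HSC libraries and 126 to 192 over the 6 MPP3 libraries. Their fitted log2 fold changes of 2.0 to 2.69 depend on very few HSC counts. All 6 passed the filter on low counts only through MPP3 libraries, a selection that favours values higher in MPP3. The remaining ones were nearest Acss1, an acetyl-CoA synthetase (1.56, SE 0.30), Drc7 (1.80, SE 0.36) and Adamts14 (1.63, SE 0.33), or inside Bnc2 (1.38, SE 0.30). Among these 12, leaving out a replicate ended the call for Adamts14 and Ankrd44 (without WT MPP3 2 and 3, adjusted p = 0.0681 and 0.0529), Tubgcp5 (without WT MPP3 1, 0.0568) and Bnc2 (without WT HSC 1 or WT MPP3 2 and 3, 0.0505 and 0.0574).

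**Figure D3:**
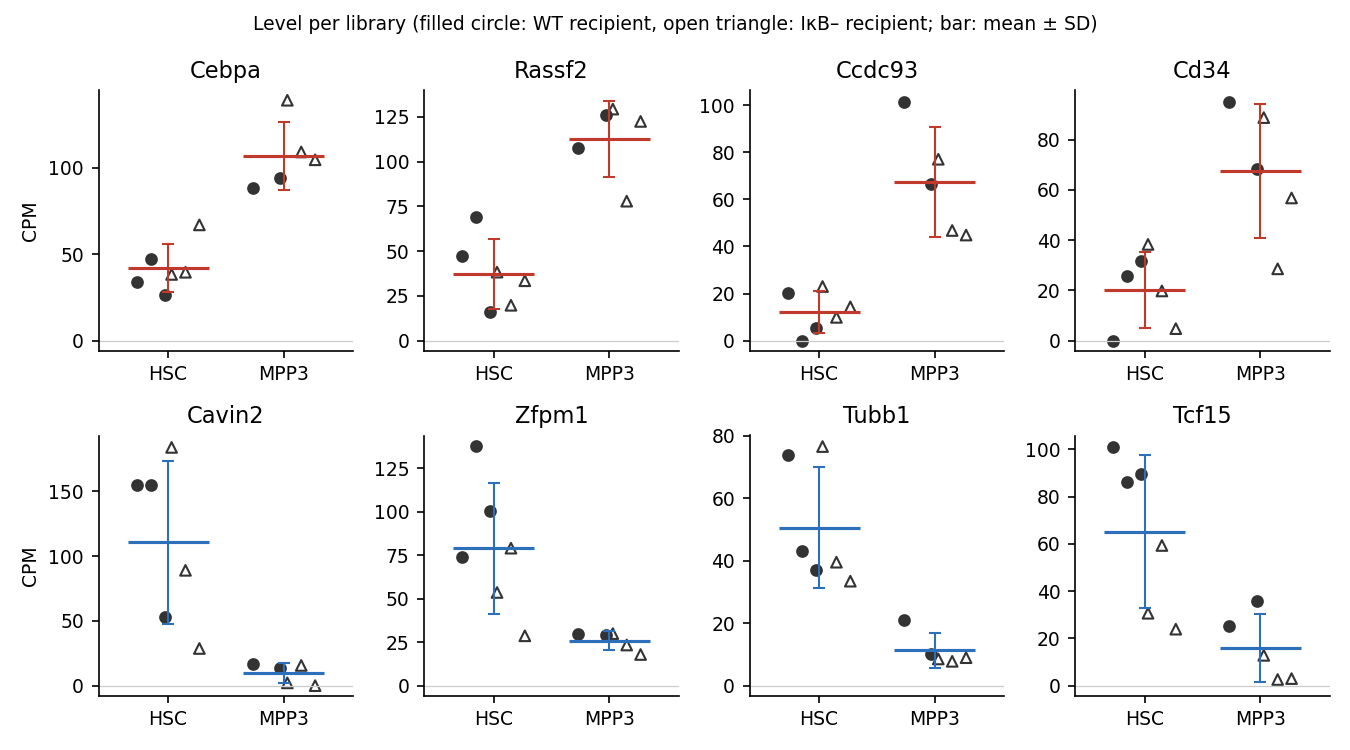
TMM-scaled CPM in each of the 11 replicates for 4 regions called higher in MPP3 (Cebpa, Rassf2, Ccdc93, Cd34) and 4 called lower (Cavin2, Zfpm1, Tubb1, Tcf15); horizontal lines and bars are the mean and SD of 6 HSC and 5 MPP3 replicates. Groups separate fully at Cebpa, Rassf2, Ccdc93, Cavin2 and Tubb1 and overlap at the other 3.

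The smallest p of all regions was at Cavin2, which encodes a coat protein of membrane caveolae and stands in the megakaryocyte list. Its gene body region (chr1:51300260-51300616) held 28.7, 122 and 184 CPM in HSC. The MPP3 replicates held 16.9 and 13.6 CPM in WT and 2.14, 15.6 and 0 CPM in IκB– recipients. The groups did not overlap, and the lowest HSC value was that of replicate 3 from IκB– recipients. The log2 fold change was -3.47 (SE 0.49, adjusted p = 0.00117), -2.96 in WT and -4.13 in IκB– recipients. The call held under all 24 alternatives, thinning included. A long non-coding RNA gene, 9330175M20Rik, overlaps the same region. At each region called lower whose values per library are given here, the lowest HSC value was that of this same library.

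Of the 13 megakaryocyte and erythroid genes with a tested region, 3 had a region called, all lower in MPP3 (Cavin2, Zfpm1 and Tubb1), beside 1.05% of all regions called lower, and the median over their 16 regions was -0.17, beside -0.02 over all. Zfpm1, which encodes the GATA1 partner FOG1, held 28.7, 76.5 and 138 CPM in HSC in a gene body region (chr8:122309249-122309750). Levels in MPP3 were 29.5 and 29.0 CPM in WT and 29.9, 23.4 and 17.9 CPM in IκB– recipients, so the groups overlapped through the lowest HSC library (log2 fold change -1.44, SE 0.32, adjusted p = 0.0209; 0.361 on thinned counts). Tubb1, the β-tubulin of platelets, held 33.5, 41.3 and 76.6 CPM in HSC (chr2:174453785-174454006). MPP3 showed 21.1 and 10.2 CPM in WT and 8.55, 7.79 and 8.96 CPM in IκB– recipients, with no overlap (log2 fold change -2.08, SE 0.48, adjusted p = 0.0224). Both calls were lost in 5 of the 11 fits without a replicate. For Zfpm1 these were the fits without WT HSC 2, IκB– HSC 2, WT MPP3 1, WT MPP3 2 and 3 or IκB– MPP3 3 (adjusted p 0.0514 to 0.114), and for Tubb1 those without WT HSC 1, IκB– HSC 1, WT MPP3 2 and 3, IκB– MPP3 1 or IκB– MPP3 3 (0.0570 to 0.0695). A gene body region of Vwf, the von Willebrand factor of platelets and endothelium, had a log2 fold change of -2.49 (SE 0.83) that was not called (adjusted p = 0.169).

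Regions near 2 of the 16 stem cell genes with a tested region were called, both lower in MPP3, beside 1.05% of all regions, while the median over their 20 regions was 0.14. Tcf15 encodes a transcription factor of quiescent HSC. A region 6.37 kb from its start site (chr2:152155463-152155733) held 23.9, 72.8 and 101 CPM in HSC. MPP3 held 25.3 and 35.8 CPM in WT and 12.8, 2.60 and 2.99 CPM in IκB– recipients, and the groups overlapped (log2 fold change -1.78, SE 0.40, adjusted p = 0.0212; 0.185 on thinned counts). The call was lost without WT HSC 1, IκB– HSC 2 or WT MPP3 1 (adjusted p 0.0536 to 0.0732).

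The second was Pdzk1ip1, a small membrane protein gene next to Tal1 and used as an HSC reporter locus. Its region was assigned by nearest start site alone, and which gene the region serves was not tested. This region, 7.0 kb from the Pdzk1ip1 start (chr4:115095705-115096658), held 129, 245 and 356 CPM in HSC. The MPP3 replicates held 156 and 147 CPM in WT and 114, 143 and 105 CPM in IκB– recipients. The groups overlapped through replicate 3 of HSC from IκB– recipients (log2 fold change -0.80, SE 0.19, adjusted p = 0.0260; 0.210 on thinned counts), and 7 of the 11 fits without a replicate lost the call (all but those without WT HSC 2, WT HSC 3, IκB– HSC 3 or IκB– MPP3 2), at adjusted p 0.0695 to 0.128. Not all regions near stem cell genes had negative values. A region in Meis1 had a log2 fold change of 0.80 (SE 0.27, adjusted p = 0.182) and the Hlf promoter 0.61 (SE 0.27, adjusted p = 0.378), and neither was called.

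Of the 7 genes for the heptad of factors that bind together in blood stem and progenitor cells, 6 had a tested region. Regions were assigned by nearest start site, so the called region near Pdzk1ip1, next to Tal1, is not counted here. The 14 heptad regions were not called in the fit with 11 replicates, and their median was 0.10. The lowest was a Runx1 gene body region (chr16:92822147-92822508) at -1.02 (SE 0.27, adjusted p = 0.0606), which was called with the 12 libraries kept apart (adjusted p = 0.0278). A Notch1 gene body region had the largest value among the 14 lymphoid regions, 1.20 (SE 0.33, adjusted p = 0.0654), and it was likewise called with the 12 libraries kept apart (adjusted p = 0.0437). Of these 14 regions 12 were above 0, beside 5518 of all 11774, and none was called with 11 replicates.

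No region was called near the genes of several other processes. These were the cell cycle (40 regions, median 0.05), NF-κB (28 regions, 0.11), the interferon response (21 regions, 0.04), adhesion and homing (23 regions, 0.03), cytosolic ribosomal proteins (62 regions, -0.03) and respiratory complex I (25 regions, 0.03). At an unadjusted p under 0.05 there were 4, 0, 2, 3, 4 and 1 of them, beside 1372 of all 11774 regions. With 1.28% of all regions called, lists of this size would hold few calls or none at the background share. The largest value in the cell cycle list was at Ccnd2, the gene of cyclin D2, with a log2 fold change of 1.32 (SE 0.45, adjusted p = 0.174).

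Markers of other cells that a sort could carry along were nearly without regions. Of the mature myeloid marker genes none had a region that passed the filter, and the mature lymphoid, erythroid and stromal or endothelial marker lists had 3, 3 and 2 regions tested, of which none was called. The exception in size was a Pdgfrb gene body region, at the gene of a growth factor receptor of stromal cells, which held 0, 12.9 and 29.7 CPM in HSC and 21.4, 42.6 and 64.9 CPM in MPP3 (lowest, median and highest). Of the 5 MPP3 replicates, 4 were above all HSC replicates, with a log2 fold change of 1.94 (SE 0.54, adjusted p = 0.0744), and with the 12 libraries kept apart the region was called (adjusted p = 0.0445). The gate took CD45.1+ Lin- cells, and the part of stromal cells in this value or in the other results was not tested. No gene had more than 1 called region by nearest start site.

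Among the strongest calls lower in MPP3 were regions near Tasp1, a protease that cleaves MLL, and Slc46a3, a lysosomal transporter. The Tasp1 region (chr2:140097108-140097415), 30.3 kb from the start site, held 52.6, 80.5 and 108 CPM in HSC. Levels in MPP3 were 27.4 and 18.8 CPM in WT and 5.35, 2.60 and 8.96 CPM in IκB– recipients, without overlap (log2 fold change -2.62, SE 0.41, adjusted p = 0.00291; 0.185 on thinned counts). The Slc46a3 region (chr5:147918025-147918558) held 33.5, 114 and 191 CPM in HSC. MPP3 showed 29.5 and 30.7 CPM in WT and 16.0, 23.4 and 23.9 CPM in IκB– recipients, again without overlap (log2 fold change -2.10, SE 0.33, adjusted p = 0.00291). Regions in Tmem131 (-1.60, SE 0.26) and near Ndst3 (-2.30, SE 0.39) and B4galnt4 (-2.60, SE 0.47) were also among these 12, as was an intergenic region (chr1:145138891-145139303; -1.82, SE 0.33).

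Of the 6 promoters called lower, Tmem45a, a transmembrane protein gene, had the largest change. Its region (chr16:56886087-56886448) held 33.5, 76.2 and 107 CPM in HSC. MPP3 held 14.7 and 22.2 CPM in WT and 16.0, 15.6 and 11.9 CPM in IκB– recipients, with no overlap (log2 fold change -2.04, SE 0.37, adjusted p = 0.00554). The call held in all 11 fits without a replicate.

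Nqo1, a quinone reductase and a standard target of the oxidative stress factor NRF2, held 47.8, 96.9 and 134 CPM in HSC (chr8:107403100-107403539). The MPP3 replicates held 48.4 and 42.6 CPM in WT and 33.1, 23.4 and 35.8 CPM in IκB– recipients. The groups overlapped slightly (log2 fold change -1.17, SE 0.27, adjusted p = 0.0236; 0.351 on thinned counts), and 4 fits lost the call (without WT HSC 2, IκB– HSC 1, WT MPP3 1 or WT MPP3 2 and 3; adjusted p 0.0827 to 0.122). Wdr17 (-1.32, SE 0.31), Magi2 (-1.61), Nrxn3 (-1.50) and Cadm2 (-0.96) were the others, and they lost the call in 8, 7, 9 and 9 of the 11 fits. For Magi2 the fits that kept it were those without WT HSC 1, WT HSC 3, IκB– HSC 3 or WT MPP3 2 and 3, for Wdr17 those without WT HSC 3, IκB– HSC 3 or IκB– MPP3 2, and for Nrxn3 and Cadm2 those without WT HSC 3 or IκB– HSC 3. Adjusted p in the fits that lost it was 0.0533 to 0.134 for Wdr17, 0.0523 to 0.166 for Magi2, 0.0599 to 0.202 for Nrxn3 and 0.0646 to 0.152 for Cadm2.

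A further group among the regions called lower had very high counts in every library. These were picked by their level in HSC, 1 side of the comparison, which favours regions that are lower in MPP3, so the counts are a description only. Of the 20 regions with the highest mean level in HSC, 4 were called lower, none was called higher, and 19 had a log2 fold change below 0. Of all regions tested 1.05% were called lower and 5518 of 11774 were above 0, and the 701 regions with at least 200 CPM in HSC had a median log2 fold change of -0.09. Together the 20 held 31273 CPM in HSC and 17366 CPM in MPP3. One of them (chr17:39847523-39848755) overlaps Rn18s-rs5, annotated as a pseudogene of 18S ribosomal RNA, and the long non-coding RNA gene AY036118. It held 3351, 4574 and 6357 CPM in HSC. Levels in MPP3 were 1982 and 2806 CPM in WT and 1348, 2356 and 2506 CPM in IκB– recipients, without overlap (log2 fold change -1.04, SE 0.19, adjusted p = 0.00531; 0.135 in the fit of all 8 groups). A neighbouring region (chr17:39843139-39846230) took 0.884% of counts in HSC and 0.515% in MPP3, the largest share of any region. Reads from repeated copies cannot be assigned to one place, so these values are uncertain as to locus. Mitochondrial counts, which come from another abundant source of DNA, were 5.60% to 12% of all counts in HSC and 1.40% to 5.36% in MPP3, and the part of depth or of such sources in these calls was not tested.

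Whether the difference between MPP3 and HSC depended on the recipient was asked within each recipient type, with no library shared between the contrasts. In WT recipients no region was called (0%; edgeR, 599 regions at an unadjusted p under 0.05; DESeq2 called 1, limma-voom 0 and the edgeR fit of all 8 groups 11), and in IκB– recipients 33 were called (0.28%), all lower in MPP3, with 28 of them among the 151. No region differed between recipients (0% of 11774; 339 at an unadjusted p under 0.05; DESeq2 and limma-voom also called 0). Without IκB– HSC 3 the count was again 0, with 1392 of 12827 regions at an unadjusted p under 0.05. A call in 1 recipient type and not in the other does not show a difference between them. The fit in IκB– recipients rested on single libraries. It called 0 regions without IκB– HSC 1 or IκB– MPP3 1, 1 without IκB– HSC 2, 10 without IκB– MPP3 3, 21 without WT MPP3 2 and 3, and 706 (111 higher, 595 lower) without IκB– HSC 3. The count in WT recipients was 22 without IκB– HSC 3, a library outside that contrast that shares its fit.

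Across 11774 regions the fold changes in the 2 recipient types had a Pearson r of 0.427 and a Spearman rho of 0.305, a description over regions that are not independent, and 59.0% had the same sign. Of the 33 regions called in IκB– recipients, 32 had the same sign in WT recipients and 18 reached an unadjusted p under 0.05 there, and their median log2 fold change was -2.56 in IκB– and -0.98 in WT recipients. Of the 599 regions at an unadjusted p under 0.05 in WT recipients, 82.6% had the same sign in IκB– recipients. There were 193 regions past that p in both, and all 193 had the same sign.

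**Figure D4:**
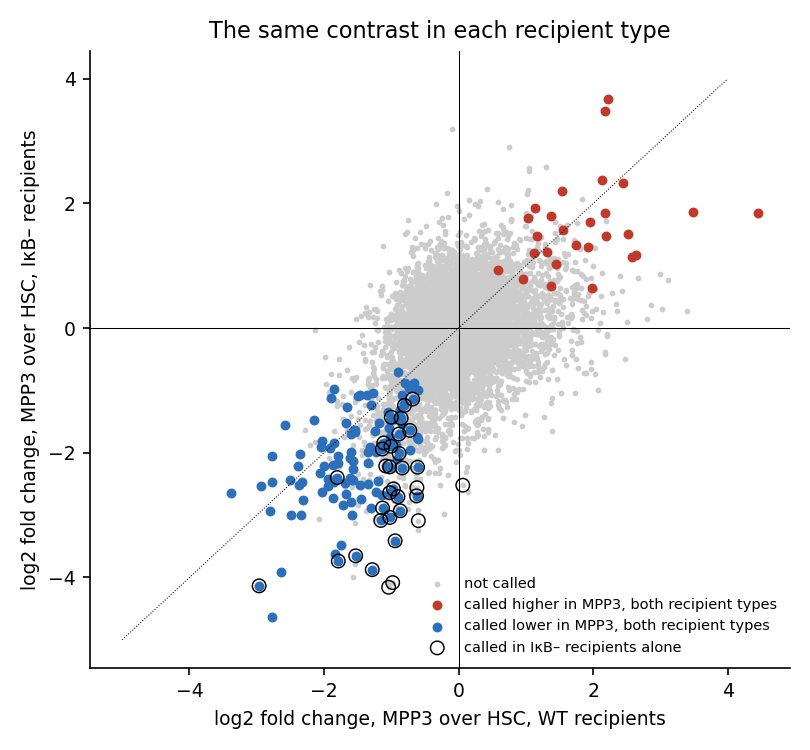
Log2 fold change of MPP3 over HSC in WT recipients (x axis) and in IκB– recipients (y axis) for 11774 regions; red and blue are the 27 and 124 regions called with both recipient types together, circles the 33 called in IκB– recipients alone, the dotted line marks equal values. The circled regions all lie below 0 on the y axis, and 32 of 33 lie below 0 on the x axis too.

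The regions called were then followed in the progenitor subsets that the comparison did not use. MPP4 was compared with MPP2, 6 against 6 libraries with recipient type as a covariate. The comparison shares no library with MPP3 against HSC, but the labels do not say that the animals differed. It called 788 of 12276 regions (6.42%), 367 higher in MPP4 (2.99%) and 421 lower (3.43%). It gave 461 without IκB– MPP2 1, 485 without IκB– MPP4 1 and 444 without IκB– MPP4 3. Of the 27 regions higher in MPP3 than in HSC, 15 were called higher in MPP4 than in MPP2 and none lower, with a median log2 fold change of 1.09. Of the 124 lower in MPP3, 118 were tested, 68 were called lower in MPP4 and none higher, with a median of -1.09. The median over the regions not called between MPP3 and HSC was 0.03. Leaving out each of the 12 libraries gave 12 to 16 and 49 to 76 such calls, and DESeq2 14 and 55, with none in the opposite direction. On thinned counts 1 of 8 and 9 of 50 regions tested were called in the same direction.

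The median level of the regions called higher was 20.1 CPM in HSC, 38.9 in MPP2, 64.0 in MPP4 and 67.2 in MPP3, and that of the regions called lower was 71.5, 65.8, 30.0 and 20.1 CPM. MPP2 and MPP4 levels were scaled over all 8 groups and HSC and MPP3 levels over 4, so small differences across the pairs are not interpretable. At Cebpa, MPP2 held 44.0 CPM and MPP4 93.3 CPM (log2 fold change of MPP4 over MPP2 1.09, adjusted p = 0.00159). At Rassf2 they held 53.1 and 112 CPM (1.16, adjusted p = 0.000806), and at Cd34 30.3 and 61.3 CPM (1.13, adjusted p = 0.0202). At Cavin2 they held 135 and 32.7 CPM (-2.09, adjusted p = 3.93e-07), and at Pdzk1ip1 216 and 125 CPM (-0.81, adjusted p = 0.00238). Values also passed at Tcf15 (-1.43, adjusted p = 0.0171), Tasp1 (-2.23, 5.58e-06), Slc46a3 (-1.59, 0.000119) and Tmem131 (-1.10, 0.00297). Some other regions described above did not pass between MPP4 and MPP2. Zfpm1 had a log2 fold change of -0.66 (adjusted p = 0.240), Tubb1 -0.99 (0.124), Tmem45a -0.86 (0.0819), Nqo1 -0.74 (0.0644), Limk1 0.28 (0.643) and Ppp2r3a -0.08 (0.868).

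**Figure D5:**
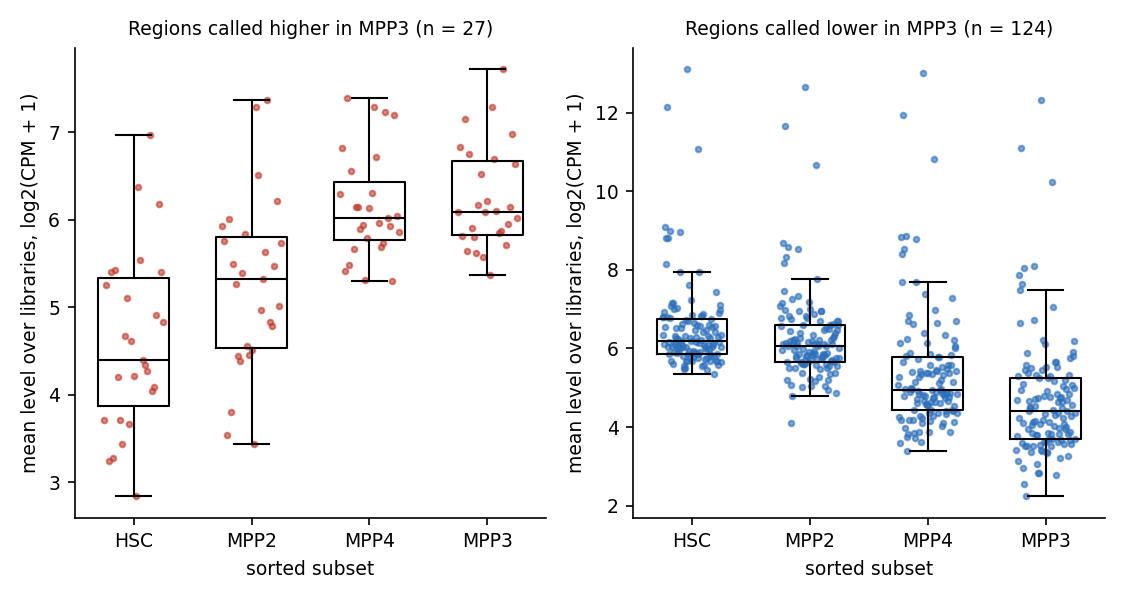
Mean level over libraries, log2(CPM + 1), in the 4 sorted subsets for the 27 regions called higher in MPP3 than in HSC (left) and the 124 called lower (right); points are regions, boxes the quartiles and median, whiskers the furthest points within 1.5 box lengths. Median levels are 38.9 CPM in MPP2 and 64.0 CPM in MPP4 on the left, and 65.8 and 30.0 CPM on the right; HSC and MPP3 were scaled apart from MPP2 and MPP4.

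The high-count regions did not share this pattern. Of the 124 regions called lower, 11 had a mean HSC level of at least 200 CPM, and their median log2 fold change was -1.04 between MPP3 and HSC but 0.33 between MPP4 and MPP2, where only the region near Pdzk1ip1 was called lower. The 113 regions under that level had medians of -1.85 and -1.16, and 67 of 107 tested were called lower in MPP4. This split was made after the values were seen and carries no test. At the Rn18s-rs5 region, MPP2 held 3267 CPM and MPP4 3956 CPM (log2 fold change 0.31, adjusted p = 0.768).

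MPP3 was also set against MPP2, with the same MPP3 libraries. This called 1668 of 13672 regions (12.2%), 458 higher and 1210 lower in MPP3, and 887 without IκB– MPP2 1. Nuclear counts were 131644 to 673485 in the MPP2 libraries. At Cebpa the log2 fold change of MPP3 over MPP2 was 1.16 (adjusted p = 0.000386), beside 1.26 over HSC, and at Cavin2 it was -3.93 (adjusted p = 3.57e-09), beside -3.47. At Ccdc93 the value was 0.10 (adjusted p = 0.814), beside 2.62 over HSC. Levels there were 59.8 CPM in MPP2 and 77.2 CPM in MPP4, against an HSC median of 12.1 CPM. On thinned counts 121 of 6022 regions were called.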

How the data were processed

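The table of raw read counts per region was deposited by the authors, with whole numbers for 13910 regions in 24 libraries. The submitters' processing notes name the mm10 build, Bowtie2, SAMtools, Picard, MACS2 2.1.0 and deepTools without settings. How duplicates, the Tn5 offset and counting were handled, and whether peaks were called on pooled samples, is not given in the sources used here. The 5 mitochondrial regions were left out. Members, gene lists and tests were chosen with earlier results of these data known.

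Counts were fitted with edgeR 4.0.16 in R 4.3.3: TMM scaling, filterByExpr over the 4 groups, a robust quasi-likelihood fit with recipient type and subset as terms (8 residual degrees of freedom, 7 for the contrasts within recipients), and Benjamini-Hochberg adjustment over all regions tested. The filter on low counts can be passed through a single subset, so some regions low in the other subset entered only because they were high in the first. MPP3 against MPP2 used the same steps, and so did MPP4 against MPP2, a comparison added after the data were seen. A region was given the protein-coding gene of RefSeq GRCm38.p6 with the nearest start site within 50 kb; 17492 of 21900 genes have a start site in the table used. Named were the 12 regions called in each direction with the smallest p, called regions of each gene list (at most 4), regions of the gate genes and genes with several called regions (there were none); called promoters and others were chosen after their values were seen. Some regions that this rule selects are not reported here. Single values per library were compared by exact permutation. DESeq2 1.42.0, limma-voom 3.58.1 and other scalings, filters and blocks were the alternatives, and the fits were tested on simulated data. Same-numbered HSC and MPP3 libraries deviated together at r over 0.1 in 4 of 6 pairs, so numbers were not taken as pairs. Intervals and tests cover the spread of these libraries; PCR copies are not independent molecules.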

Additional observations from a re-analysis of the deposited data

Results flagged for a closer look

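In 98 sets of replicate values examined (6 HSC or 5 MPP3 values of each named region or library measure), 6 had 1 library far from the others of its subset, and chance alone gives about 1 in 20. Replicate 2 of HSC from IκB– recipients was high at the region inside Ppargc1a (29.7 CPM, next highest 9.56) and at that near Adamts14 (49.4 CPM, next 21.5), and it lay at -63.7 on the second principal component, where the nearest HSC library was at 2.63. It also had the fewest nuclear counts, 107053. At Tubb1, replicate 1 of MPP3 from WT recipients held 21.1 CPM, with the next at 10.2. At Cadm2, replicate 2 of MPP3 from IκB– recipients held 70.1 CPM, with the next at 58.0. Replicate 1 of MPP3 from IκB– recipients had 950203 nuclear counts, with the next at 488364; this takes the mean of replicates 2 and 3 from WT recipients as 1 value, and with their sum the library would not stand out by the same measure.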

How the results depend on the processing

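MPP3 against HSC (151 called) gave 230 with DESeq2, 346 (93 higher, 253 lower) with the replicate block and the 12 libraries kept apart, which alone gave 200, 326 in a fit of all 8 groups, 242 (89 higher, 153 lower) with a covariate for the share near gene ends, 14 on thinned counts, 7 when only regions within 1 kb of gene ends were fitted and 285 when only the others were. Leaving out a library gave 64 to 420 (73 without replicates 2 and 3 of MPP3 from WT recipients). Total-count scaling gave 35 higher and 99 lower of 134, limma-voom 8 and 104 of 112. In IκB– recipients (33) the counts were 56 with 12 libraries apart, 21 with total counts, 111 with DESeq2, 17 with limma-voom, 209 with the replicate block and 12 libraries apart, 125 with 8 groups and 0 to 706 without a library. In WT recipients (0) they were 1 with DESeq2, 20 with the block and 12 libraries apart, 11 with 8 groups and 0 to 22 without a library. The difference between recipients stayed at 0 under all 19 alternatives run. MPP3 against MPP2 (1668) gave 121 on thinned counts and 887 to 1891 without a library, and MPP4 against MPP2 (788) gave 505 with DESeq2, 26 on thinned counts and 444 to 948 without a library. The replicate numbers are shared across groups but not said to mark a batch; 11 of 12 libraries correlated best with the same number of the other subset, a hint from the data. Of 37 named called regions none reversed in 872 fits, of which 741 kept the call; the call of 20 of the 24 strongest held without each library, but only 7 held under all settings run, 8 being lost with limma-voom and 6 of the 14 that could be fitted on thinned counts. A region 37.4 kb from Cd34, not called, turned from -0.10 to 0.12 on thinned counts. HSC libraries were the shallower ones, and a missing call does not show equal accessibility. The cause of these shifts was not tested.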
